A study of Mus musculus with 59 samples.

Results

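Luminal epithelium (LE) was compared with whole uterus (U) of the same 6 control mice on the day of the mating plug, D0.5. The comparison takes 12 of the 59 libraries of the study, which are all control D0.5 animals with a library of both tissues: the LE and U libraries of animals 1, 2, 3, 5, 8 and 9. The females were Esr1f/-, that is they carried 1 floxed and 1 null allele of Esr1, the gene of oestrogen receptor alpha, so the controls themselves have a single working copy. They had no Cre, had been mated with wild type males and were about 2 to 6 months old. For LE the uterus was digested with 0.5% dispase for 30 min, and the lining of the lumen was scraped out. U was an undigested, frozen piece of the same uterus, which holds the epithelium together with stroma, muscle, vessels and blood cells. All RNA of a tissue was isolated together, so digestion, isolation batch and tissue cannot be told apart in this pair. Further libraries served as points of comparison: digested uterus (DU) of 4 of these animals and LE with U of 3 control animals at D3.5. LE with U of 4 epiERa-/- animals (Esr1f/-Wnt7aCre/+) at D0.5, in which Cre under Wnt7a control acts in the epithelium, served as well. LE with U of 4 epiERa-/- animals at D3.5 entered the joint fit of these groups, but their values are not reported here.

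The mouse uterus is lined by a single layer of columnar luminal epithelium that rests on a basement membrane. Below it lie the stroma with glands and vessels, and the smooth muscle of the myometrium. On the day of the plug the lining is under high oestrogen and releases fluid, antimicrobial proteins and chemokines into the lumen. Much of its behaviour is set by exchange with the stroma, since hormone receptors, growth factors and their receptors lie on either side of the basement membrane. A scraped sheet is here set against an organ that contains it.

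Total estimated counts (M, 1e6 counts) lay between 16.4 and 22.2 M in LE (median 17.8) and between 11.3 and 53.1 M in U (median 18.7). Levels are given as counts scaled to library size (CPM) after TMM scaling, as mean ± SD over 6 animals, and differences as log2 fold change of LE over U ± standard error with its adjusted p from a fit that pairs the animals. Some LE libraries stood apart. The summed level of 18 stromal fibroblast markers was 8878 and 4968 CPM in LE of animals 2 and 5 and between 1422 and 3203 CPM in LE of the other 4. The same animals led for 5 mesothelium markers, with 1125 and 653 CPM against 99.4 to 292 CPM. LE of animal 9 held genes of stratified epithelium at 485 CPM in all, against 14.9 to 59.2 CPM in the other 5 LE libraries. Both libraries of animal 1 were low in cholesterol synthesis genes. Values without animals 2 and 5 are given where a count moved by over 1.5 times or a median changed sign. A call is marked where it was lost in leave-outs, in which each animal was left out in turn.

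Of 21706 genes, 14711 were tested. In LE, 3561 genes (24.2%) were higher and 3922 (26.7%) lower than in U at an adjusted p under 0.05. These 2 shares are the ones to set beside the counts of each gene list below. The 2 directions differed in size. The median log2 fold change of the genes higher in LE was 0.70, and that of the genes lower in LE was −1.97. A difference of at least 2-fold was called for 1020 genes (6.93%) higher and 2893 (19.7%) lower, and only 33 higher genes but 1937 lower genes passed 4-fold. U holds the epithelium too, which limits the fold of genes of epithelium alone on the higher side and not on the lower. The part of this limit in the sizes was not tested. All 6 LE libraries lay above all 6 U libraries in 1043 genes (7.09%) and below them in 2325 (15.8%). Without animals 2 and 5 the counts were 2836 higher and 3456 lower. On log2(TPM + 1), which is scaled within each library, 1691 genes (12.7%) were higher and 4665 (35.1%) lower. The median of all genes lay at −0.20 on that scale and at 0.00 on counts. Of the calls, 47.6% were on the higher side with counts and 26.6% with TPM. None of the genes called in one direction on counts was called in the other on TPM.

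The label of LE as epithelium was borne out by general epithelial markers, which do not tell luminal from glandular epithelium. Of 24 tested general epithelial markers 23 were higher in LE and none was lower, with a median log2 fold change of 1.34 and a range from 0.55 to 1.72. Cdh1, which encodes E-cadherin, had 994 ± 226 CPM in LE and 358 ± 79.8 CPM in U (log2 fold change 1.48 ± 0.11, adjusted p = 3.05e-05, higher in 6 of 6 animals). All LE libraries lay above all U libraries, with 682, 925 and 1301 CPM in LE and 202, 378 and 434 CPM in U as lowest, median and highest. Elf3, an epithelial transcription factor, had 1502 ± 195 CPM in LE and 541 ± 128 CPM in U (log2 fold change 1.49, adjusted p = 4.83e-05). The epithelial markers were therefore far from absent in U: at the median of the list, the U level was 39.4% of the LE level. The U library of animal 8 had a mean log2 level of the list of 7.31, above the other 5 U libraries. In bulk samples like these, fewer cells of a type and less RNA per cell cannot be told apart.

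**Figure D1:**
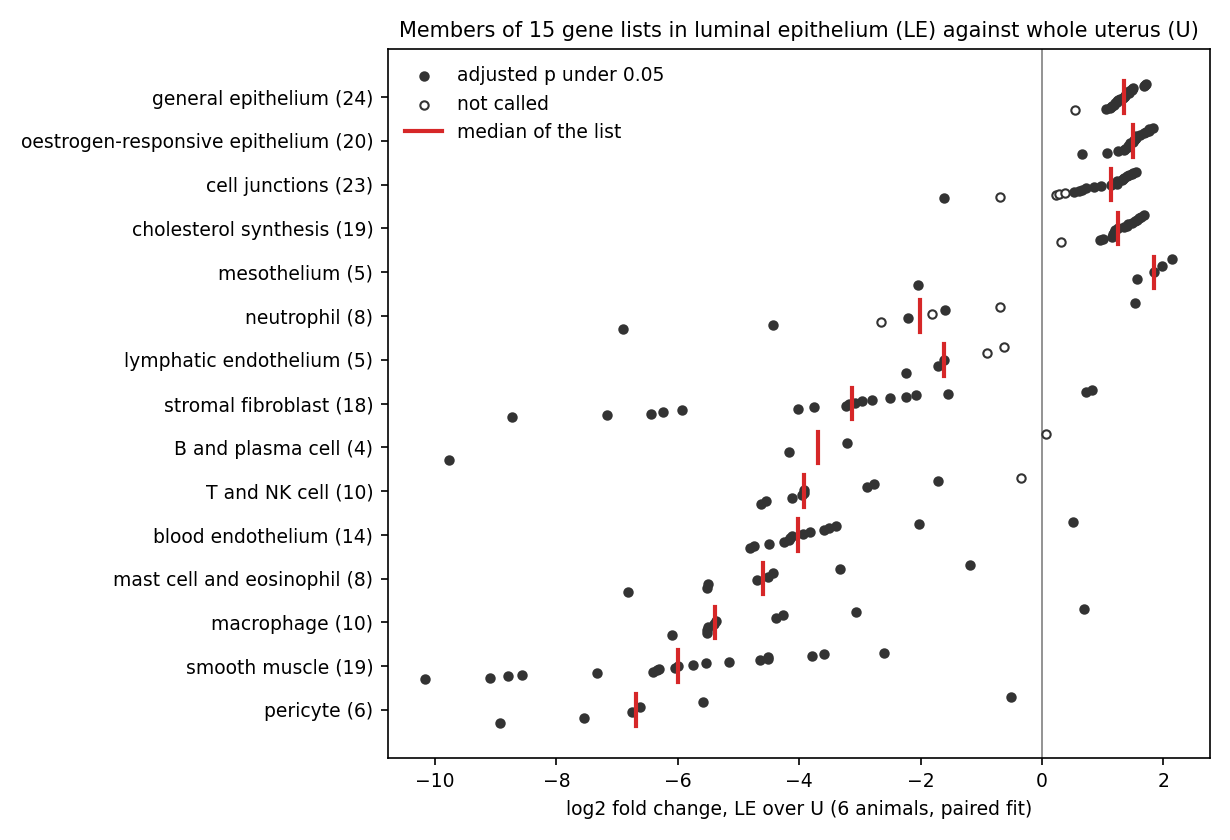
Log2 fold change of LE over U for the tested members of 15 gene lists, 1 point per gene, with the number of tested members in brackets. Filled points passed an adjusted p of 0.05, open points did not, and the red bar is the median of the list. General epithelial markers sit in a narrow band to the right of 0, between 0.55 and 1.72, while the cell junction list reaches down to −1.61 (Cldn8). Muscle and pericyte genes reach far to the left, with medians of −6.00 and −6.69.

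The genes that stood furthest above U were of several kinds. Among genes with at least 10 CPM and no overlap between the tissues, the 10 highest folds belonged to Fosb, Fos, Tmprss11b, Csf3, Egr1, Muc13, Gcnt3, Uox, Zfp36 and Tmprss11g. Fosb and Fos are immediate early transcription factors and are taken up below with the digestion. Csf3, which encodes the granulocyte growth factor G-CSF, had 248, 369 and 746 CPM in LE and 54.9, 80.5 and 182 CPM in U as lowest, median and highest level. The lowest LE library was above the highest U library (log2 fold change 2.06 ± 0.21, adjusted p = 1.07e-04, higher in 6 of 6 animals). Muc13 is a cell-surface mucin and had 33.2 ± 7.74 CPM in LE and 9.63 ± 4.20 CPM in U (log2 fold change 1.89 ± 0.22, adjusted p = 1.79e-04, higher in 6 of 6 animals). Gcnt3, an enzyme that branches O-glycans of mucins, had 90.0 ± 28.6 CPM in LE and 25.8 ± 11.4 CPM in U (log2 fold change 1.88 ± 0.14, adjusted p = 3.32e-05, higher in 6 of 6 animals). Tmprss11b and Tmprss11g, membrane serine proteases of epithelia, had log2 fold changes of 2.14 ± 0.39 and 1.82 ± 0.30 (adjusted p = 0.00191 and 0.00115, 6 of 6 animals each). Uox encodes urate oxidase, and its level was 176 ± 50.8 CPM in LE and 54.2 ± 30.4 CPM in U (log2 fold change 1.86 ± 0.33, adjusted p = 0.00176, higher in 6 of 6 animals).

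LE was also the more concentrated transcriptome. The 50 most abundant genes of a library took 35.1 ± 2.56% of all TPM in LE and 26.9 ± 3.07% in U (SD, n = 6 each). The share was larger in LE in 6 of 6 animals (exact paired permutation test, two-sided, p = 0.03125, the smallest that 6 pairs allow). The 10 most abundant genes took 18.6% in LE and 10.3% in U. By TPM the leading genes of LE were Lcn2, mt-Co1, Prap1, mt-Atp6, Sprr2f, mt-Co3, Olfr1033, mt-Nd4l, Ltf and mt-Nd3. Lcn2 (lipocalin 2, which withholds iron from bacteria) stood at 27618 ± 10642 TPM in LE and 12508 ± 6437 TPM in U, and led in both tissues. Prap1, a secreted proline-rich protein, stood at 21204 ± 8006 TPM in LE and 8224 ± 3587 TPM in U. U shared Lcn2, mt-Co1, mt-Atp6, Prap1, Sprr2f and mt-Co3 with that list and had Rps27, Rplp1, Tmsb4x and Eef1a1 in place of the others. The 13 mitochondrially encoded genes took 12.9 ± 2.57% of TPM in LE and 6.82 ± 0.649% in U (higher in 6 of 6 animals). Single Sprr2 and Olfr genes have close relatives, so their values are uncertain.

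Oestrogen-responsive epithelial genes were higher in LE. All 20 tested genes of this list were called higher in LE, with a median log2 fold change of 1.50 (19 without animals 2 and 5). Ltf, which encodes the iron-binding defence protein lactoferrin, had 10004, 18259 and 22867 CPM in LE and 2381, 6793 and 10840.5 CPM in U as lowest, median and highest level (log2 fold change 1.53 ± 0.18, adjusted p = 1.83e-04, higher in 6 of 6 animals). Cuzd1, a secreted protein with CUB and zona pellucida domains, had 79.0 ± 41.0 CPM in LE and 22.1 ± 9.79 CPM in U (log2 fold change 1.82 ± 0.15, adjusted p = 4.54e-05, higher in 6 of 6 animals). Fxyd4, a regulator of the sodium pump, had 444 ± 114 CPM in LE and 169 ± 66.1 CPM in U (log2 fold change 1.44 ± 0.11, adjusted p = 3.61e-05, higher in 6 of 6 animals). Of 13 mucosal defence genes 7 were higher and 2 lower in LE. Wfdc2 and Wfdc18, small secreted proteins with a whey acidic protein domain, had log2 fold changes of 1.64 ± 0.17 and 1.77 ± 0.16. The 2 against the rest were Lyz2, lysozyme of macrophages and neutrophils (−4.26), and Hp, the haemoglobin carrier haptoglobin (−3.28).

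Mucin and surface glycoprotein genes differed in both directions. Of 12 mucin and surface glycoprotein genes 6 were higher and 4 lower in LE. Muc1, the transmembrane mucin of the apical surface, had 1629.8 ± 298 CPM in LE and 638 ± 172 CPM in U (log2 fold change 1.37 ± 0.11, adjusted p = 3.78e-05, higher in 6 of 6 animals). Muc20 and Ceacam1, a mucin and an adhesion molecule of epithelia, had log2 fold changes of 1.59 and 1.40 (adjusted p = 1.44e-05 and 1.74e-04). The lower ones, Mcam (−5.06), Emcn (−4.74), Cd34 (−4.03) and Podxl (−1.47), are sialomucins or adhesion proteins of vessel walls. Among 21 enzymes that build O-glycans and surface glycans 14 were higher and 2 lower. Galnt6 and Galnt12, which start O-glycan chains, had log2 fold changes of 1.21 and 1.44, and B3gnt5 (−3.19) and the sialyltransferase St3gal4 (−2.66) were on the lower side.

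Genes of the epithelial sheet as a structure were higher in LE. Of 23 genes of tight junctions, adherens junctions and desmosomes 18 were higher and 1 was lower, with a median log2 fold change of 1.14. Cgn (cingulin, a tight junction adaptor) had 181 ± 43.0 CPM in LE and 66.6 ± 13.7 CPM in U (log2 fold change 1.43 ± 0.09, adjusted p = 1.66e-05, higher in 6 of 6 animals). Gjb2 (the gap junction protein connexin 26) had 219 ± 81.0 CPM in LE and 76.1 ± 24.1 CPM in U (log2 fold change 1.50 ± 0.11, adjusted p = 2.33e-05, higher in 6 of 6 animals). F11r, the junctional adhesion molecule JAM-A, had a log2 fold change of 1.24 ± 0.09 (adjusted p = 2.86e-05, 6 of 6 animals). The one lower gene was the claudin Cldn8, with 1.21 ± 0.828 CPM in LE and 3.97 ± 3.15 CPM in U (log2 fold change −1.61 ± 0.34, adjusted p = 0.00423, lower in 6 of 6 animals). Of 15 apical polarity and microvillus genes 12 were higher and none was lower. They included the polarity proteins Pard6b (1.37) and Llgl2 (1.06) and the vesicle motor Myo5b (1.52).

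The cholesterol synthesis list had 18 of 19 genes higher in LE and none lower, with a median log2 fold change of 1.25. Msmo1, a late enzyme of the pathway, had 24.0, 145 and 212 CPM in LE and 7.56, 45.4 and 68.0 CPM in U as lowest, median and highest level (log2 fold change 1.62 ± 0.14, adjusted p = 4.66e-05, higher in 6 of 6 animals). The lowest library of both tissues was that of animal 1, and LE was above U within every animal. The secretory pathway was shifted less, with 19 of 24 genes higher, 1 lower and a median of 0.67. Without animals 2 and 5 it had 16 higher and 0 lower. Calr and Pdia4, which fold proteins in the endoplasmic reticulum, had log2 fold changes of 1.15 and 0.94, and Ssr1, a subunit at the translocon, 0.90. The lower member was Ddit3, a transcription factor of the unresolved stress response (−0.62, adjusted p = 0.0226, call lost in 3 of 6 leave-outs).

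Among 24 genes of water and ion transport 14 were higher and 3 lower in LE. Kcnk1, a potassium leak channel, had 305 ± 77.1 CPM in LE and 117 ± 21.7 CPM in U (log2 fold change 1.37 ± 0.11, adjusted p = 4.48e-05, higher in 6 of 6 animals). The carbonic anhydrase Car12 (1.49) and the chloride transporter Clcn3 (1.05) were higher with adjusted p = 9.60e-05 and 8.88e-05. The lower genes were the water channels Aqp1, found in vessel walls, with 25.1 ± 17.2 CPM in LE and 181 ± 59.2 CPM in U (log2 fold change −3.10, adjusted p = 0.00180), and Aqp9 (−1.99), and the proton pump subunit Atp6v0d2 (−1.89, call lost in 5 of 6 leave-outs). The value of Atp6v0d2 turned to 0.12 without the replicate block and was −0.46 with limma voom.

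**Figure D2:**
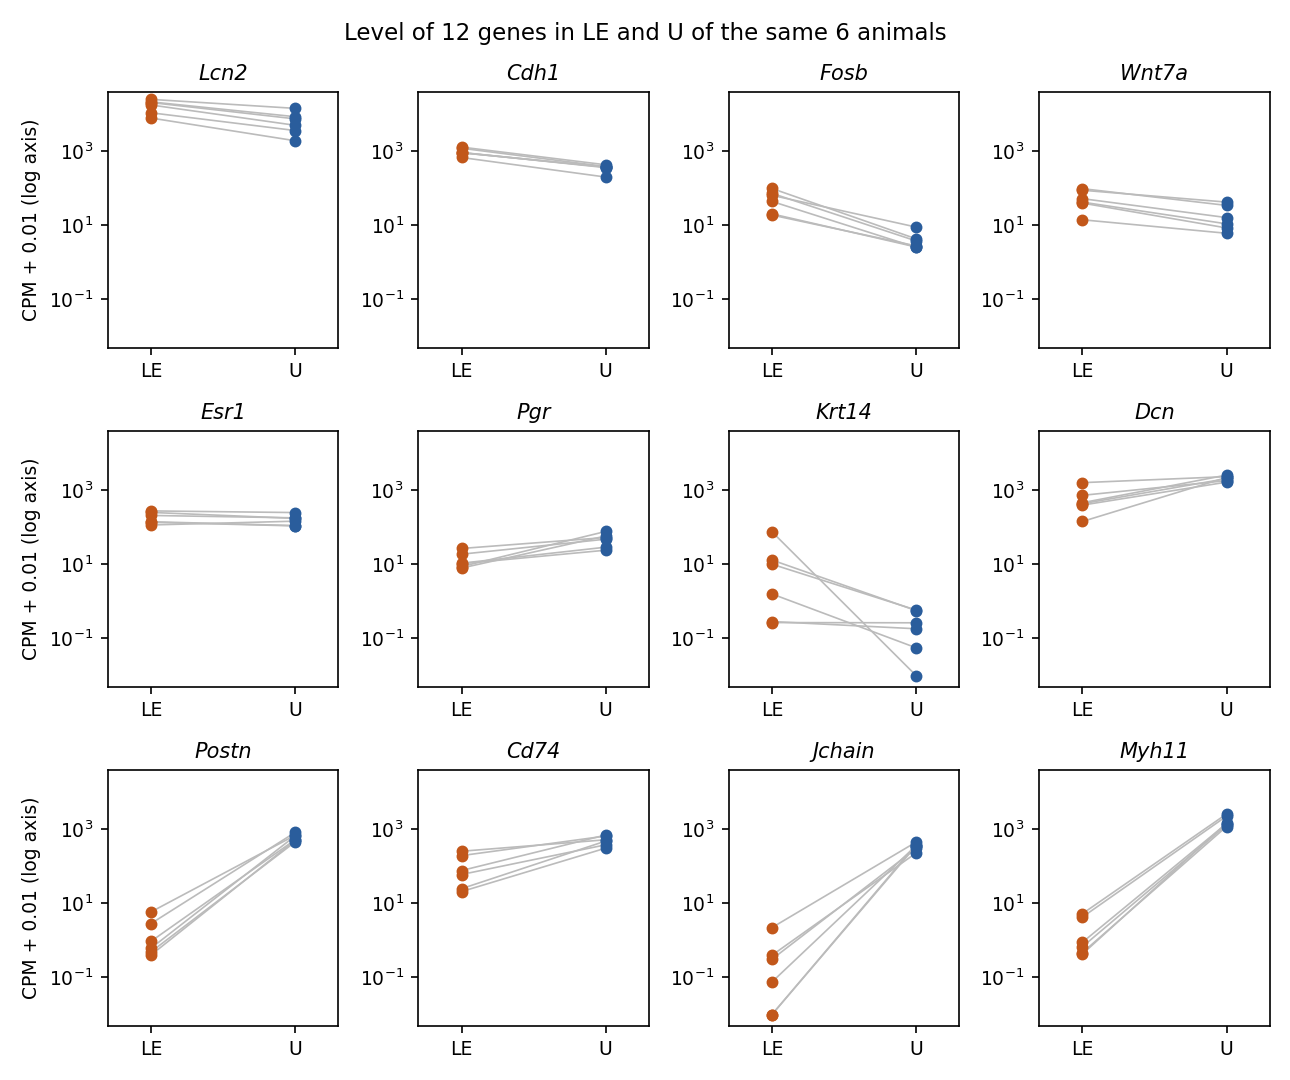
CPM of 12 genes on a log axis (0.01 added so that a level of 0 can be drawn), in LE on the left and U on the right of each panel, with 1 point per library and a line joining the libraries of an animal. Lcn2, Cdh1, Fosb and Wnt7a lie higher in LE in all 6 animals, Esr1 overlaps between the tissues, Krt14 spreads widely between LE libraries, and Postn, Jchain and Myh11 are lower in LE, with no overlap.

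The genes lowest in LE by the same rule were Hmcn2, Tmem200c, Nmur2, Chodl, Aspg, Myh11, Jchain, Npas4, A2m and Slc26a7. Tmem200c and Chodl (chondrolectin) had no count in any of the 6 LE libraries and 26.3 ± 11.8 CPM in U and 14.6 ± 10.0 CPM in U. Against a floor of 3 counts over the LE group they were at least 885-fold and 492-fold lower in LE, a bound that covers counting error only. Hmcn2 (hemicentin 2, of the matrix), Nmur2 (a neuromedin U receptor) and Npas4 (an activity-dependent factor) had 1 count each over all LE libraries, and 79.9 ± 35.2 CPM in U, 51.4 ± 13.2 CPM in U and 12.3 ± 5.58 CPM in U. Aspg, an asparaginase, had 0, 0.0791 and 0.388 CPM in LE and 113, 205 and 286 CPM in U as lowest, median and highest level (log2 fold change −10.44 ± 0.47, adjusted p = 5.12e-06, lower in 6 of 6 animals). A2m, the protease inhibitor alpha-2-macroglobulin, had 0.222 ± 0.203 CPM in LE and 151 ± 92.4 CPM in U (log2 fold change −9.39 ± 0.37, adjusted p = 3.27e-06, lower in 6 of 6 animals), and the anion exchanger Slc26a7 had 0.0994 ± 0.112 CPM in LE and 73.4 ± 47.4 CPM in U (log2 fold change −9.38 ± 0.53, adjusted p = 8.89e-06, lower in 6 of 6 animals). No overlap and 1 sign in all 6 animals were required by that rule, so both hold for these genes by choice.

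Muscle and pericyte lists had the lowest medians of the 51 lists with a tested gene. All 19 tested smooth muscle genes were lower in LE, with a median log2 fold change of −6.00. Myh11, the smooth muscle myosin heavy chain, had 0.421, 0.776 and 5.28 CPM in LE and 1191, 1444 and 2596 CPM in U as lowest, median and highest level. The LE libraries lay far below the U libraries without overlap (log2 fold change −10.16 ± 0.48, adjusted p = 6.07e-06, lower in 6 of 6 animals). Lmod1 (leiomodin, which nucleates actin filaments) had 0.221 ± 0.137 CPM in LE and 85.1 ± 16.9 CPM in U (log2 fold change −8.57 ± 0.32, adjusted p = 2.41e-06, lower in 6 of 6 animals). Kcnmb1, a subunit of the calcium-activated potassium channel of muscle, had 0.369 ± 0.159 CPM in LE and 29.8 ± 6.85 CPM in U (log2 fold change −6.34 ± 0.28, adjusted p = 4.51e-06, lower in 6 of 6 animals). All 6 pericyte genes were lower as well, with a median of −6.69. Abcc9 and Kcnj8, which form a potassium channel of pericytes, had log2 fold changes of −6.75 ± 0.35 and −6.62 ± 0.56, and Rgs5, a regulator of G protein signals, −8.94 ± 0.77. Without animals 2 and 5, 5 of the 6 were called.

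Stromal fibroblast genes were lower in LE, though to very different degrees. Of 18 tested markers 16 were lower and 2 higher, and the median log2 fold change was −3.13. Dpt (dermatopontin, a matrix protein) had 0.197, 0.694 and 1.79 CPM in LE and 260.0, 301 and 395 CPM in U as lowest, median and highest level (log2 fold change −8.74 ± 0.44, adjusted p = 6.42e-06, lower in 6 of 6 animals). Twist2, a mesenchymal transcription factor, had 0.492 ± 0.263 CPM in LE and 29.6 ± 7.37 CPM in U (log2 fold change −5.94 ± 0.31, adjusted p = 7.09e-06, lower in 6 of 6 animals). Pdgfrb, a receptor of stroma and vessel wall cells, had 1.31 ± 0.871 CPM in LE and 174 ± 23.4 CPM in U (log2 fold change −7.17 ± 0.36, adjusted p = 6.42e-06, lower in 6 of 6 animals). By contrast Dcn (decorin, a matrix proteoglycan of fibroblasts), chosen after its values were seen, kept 144, 449.8 and 1612 CPM in LE and 1666, 2147 and 2582 CPM in U as lowest, median and highest level. Its highest LE library was that of animal 2, which overlapped with no U library but came close to the lowest (log2 fold change −2.08 ± 0.39, adjusted p = 0.00238, lower in 6 of 6 animals). The 2 stromal markers against the rest were Fbln1, a matrix fibulin, with 747 ± 175 CPM in LE and 449 ± 66.4 CPM in U (log2 fold change 0.72 ± 0.14, adjusted p = 0.00258, higher in 6 of 6 animals), and Nt5e, the ectoenzyme CD73, with 71.4 ± 21.2 CPM in LE and 40.8 ± 12.3 CPM in U (log2 fold change 0.82 ± 0.11, adjusted p = 4.90e-04, higher in 6 of 6 animals). Both were above U in every animal.

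Vessel genes were mostly lower in LE. Of 14 blood endothelial markers 13 were lower and 1 higher in LE, with a median of −4.03. Pecam1 (the endothelial adhesion molecule CD31) had 7.55 ± 5.74 CPM in LE and 107 ± 11.2 CPM in U (log2 fold change −4.12 ± 0.37, adjusted p = 6.19e-05, lower in 6 of 6 animals). Egfl7 and Cdh5, a secreted endothelial factor and VE-cadherin, had log2 fold changes of −3.60 ± 0.33 and −4.16 ± 0.39. Flt1, the VEGF receptor that also exists as a soluble decoy, was the exception, with 114 ± 63.2 CPM in LE and 77.9 ± 36.1 CPM in U (log2 fold change 0.51 ± 0.11, adjusted p = 0.00424, higher in 6 of 6 animals), and was not called on TPM. Of 5 lymphatic endothelial markers 3 were lower, namely Lyve1 (−2.23), Mmrn1 (−1.62) and the VEGF receptor Flt4 (−1.72, call lost in 3 of 6 leave-outs).

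Immune cell genes were lower too. Of 10 macrophage genes 9 were lower and 1 higher in LE, with a median of −5.39. C1qa, a complement protein made by macrophages, had 3.62 ± 1.90 CPM in LE and 167 ± 69.0 CPM in U (log2 fold change −5.52 ± 0.39, adjusted p = 2.33e-05, lower in 6 of 6 animals). Adgre1 (F4/80) and the fractalkine receptor Cx3cr1 had log2 fold changes of −5.51 ± 0.41 and −4.39 ± 0.31. The higher one was Cd68, a lysosomal protein, with 209 ± 53.3 CPM in LE and 130.3 ± 41.7 CPM in U (log2 fold change 0.69 ± 0.15, adjusted p = 0.00402, higher in 6 of 6 animals). Jchain, which joins secreted antibodies and marks plasma cells, had 0, 0.183 and 2.22 CPM in LE and 229.7, 361 and 452 CPM in U as lowest, median and highest level. It was at 0 in LE of animals 2 and 8, and every U library was above every LE library (log2 fold change −9.78 ± 0.66, adjusted p = 1.96e-05, lower in 6 of 6 animals). Mzb1 and Cd79a, further genes of this lineage, had log2 fold changes of −4.17 and −3.21. T and NK cell genes were lower in 9 of 10 cases, with a median of −3.93, among them the cytotoxic granule genes Nkg7 (−3.96) and Gzma (−2.88). All 8 mast cell and eosinophil genes were lower, including the eotaxin receptor Ccr3 (−6.82), Siglecf (−4.44) and the granule protein Prg2 (−5.50).

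Neutrophil genes were mixed. Of 8 tested, 4 were lower and 1 higher. Retnlg, a resistin-like protein of granulocytes, had 0.692 ± 0.607 CPM in LE and 79.5 ± 39.5 CPM in U (log2 fold change −6.90 ± 0.38, adjusted p = 8.44e-06, lower in 6 of 6 animals), and the gelatinase Mmp9 and the G-CSF receptor Csf3r had log2 fold changes of −4.44 ± 0.57 and −2.20 ± 0.53. Ly6g went the other way with 12.7 ± 5.62 CPM in LE and 4.32 ± 1.73 CPM in U (log2 fold change 1.53 ± 0.16, adjusted p = 1.29e-04, higher in 6 of 6 animals). It belongs to a family of close relatives, so its reads may be shared. The level of the list in LE was highest in animal 2, with 449 CPM in all against 21.2 to 151 CPM in the other 5.

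Mesothelial markers were mostly higher in LE. Of 5 genes of this outer covering 4 were higher in LE and 1 was lower, with a median of 1.85. Msln (mesothelin) had 35.1, 73.0 and 307 CPM in LE and 13.3, 19.7 and 54.4 CPM in U as lowest, median and highest level (log2 fold change 2.15 ± 0.50, adjusted p = 0.00648, higher in 5 of 6 animals). The highest LE libraries were those of animals 2 and 5, and animal 8 had less in LE than in U. Upk1b (uroplakin 1B) and Lrrn4 had log2 fold changes of 1.98 ± 0.50 and 1.85 ± 0.43. Without animals 2 and 5, 2 were higher and 1 lower, with a median of 1.23. The lower gene was Wt1, a transcription factor of mesothelium and stroma (−2.04). Of 5 genes of stratified epithelium, Krt14 and Dsg3 were higher. Krt14, a keratin of basal cells, had 0.259, 5.85 and 76.0 CPM in LE and 0, 0.214 and 0.576 CPM in U as lowest, median and highest level, with the highest value in LE of animal 9 (log2 fold change 4.77 ± 1.34, adjusted p = 0.0165, higher in 6 of 6 animals). Dsg3, a desmosomal cadherin, had 15.0 ± 11.8 CPM in LE and 4.05 ± 3.08 CPM in U (log2 fold change 2.04 ± 0.36, adjusted p = 0.00160, higher in 6 of 6 animals). Without those 2 animals 1 of the list was higher. The part of such cells in other results was not tested.

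Among 7 tested gland genes Sox9 (1.37) and Lif (1.94) were higher in LE, and Cxcl15, a chemokine of uterine glands, was lower with 0.0954 ± 0.125 CPM in LE and 3.41 ± 2.19 CPM in U (log2 fold change −5.00 ± 0.85, adjusted p = 0.00138, lower in 6 of 6 animals). The 2 higher and 1 lower of these 7 stand beside 24.2% higher and 26.7% lower over all genes. The median of the list was 0.06 on counts and −0.05 on TPM, and −0.12 without animals 2 and 5. Foxa2, the gland transcription factor, had 6.04 ± 8.95 CPM in LE and 7.45 ± 3.59 CPM in U (log2 fold change −0.99, adjusted p = 0.0539) and was named after its values were seen. Of 4 oviduct genes Foxj1 (−3.24) and Ccdc39 (−0.80, call lost in 1 of 6 leave-outs), both of motile cilia, were lower. None of the sperm and seminal fluid genes reached the level for a test, and their sum was at most 2.16 CPM in LE and 2.44 CPM in U. Erythroid and nerve genes had 1 lower gene each, Alas2 (−1.36, call lost in 4 of 6 leave-outs), the haem synthesis enzyme of red cells, and the neurotrophin receptor Ngfr (−4.00). Alas2 was also not called without animals 2 and 5, without the replicate block or with limma voom, and the erythroid list had 0 higher and 3 lower on TPM.

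**Figure D3:**
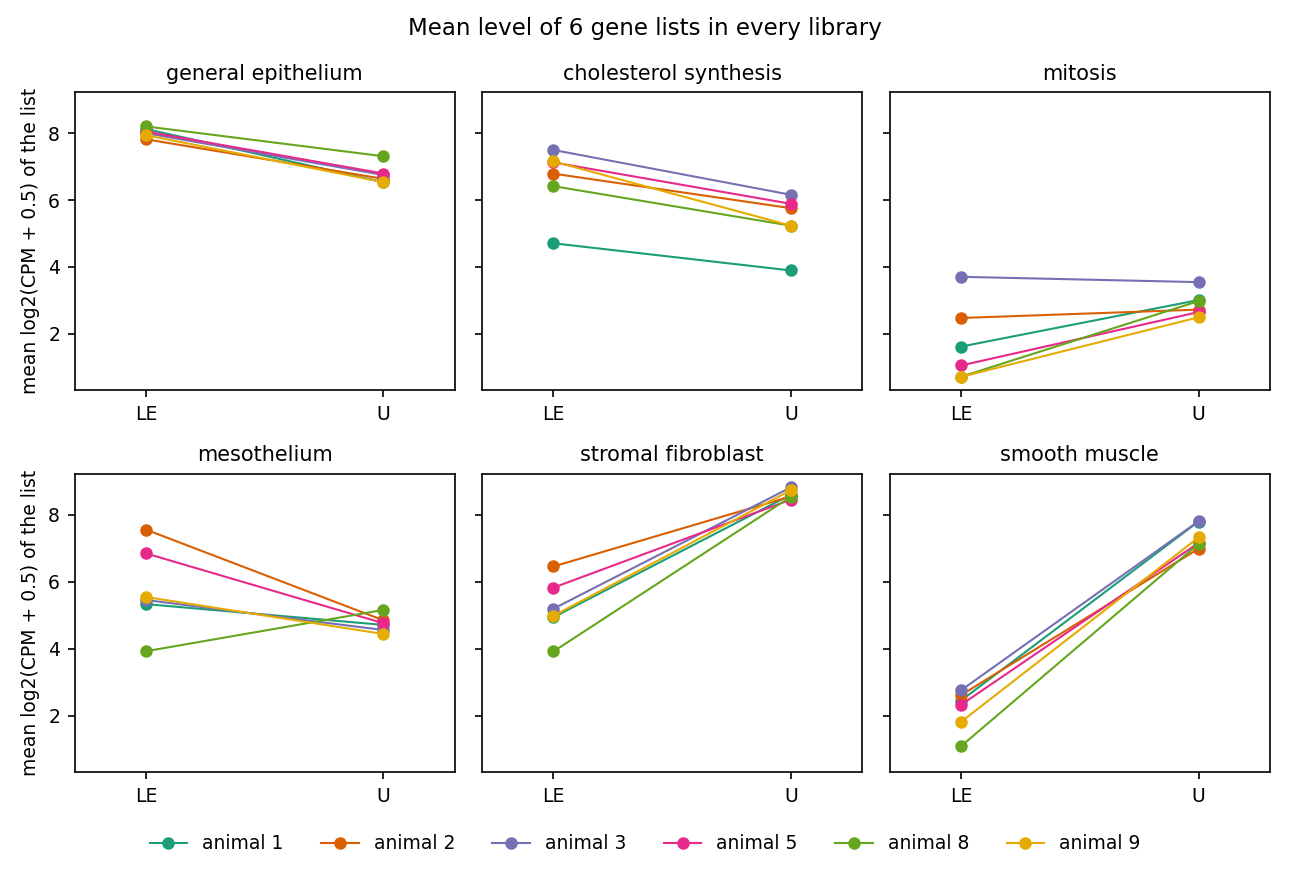
Mean log2(CPM + 0.5) of the members of 6 gene lists in every library, LE on the left and U on the right, with a colour and a line for each animal. Epithelial and cholesterol genes are higher in LE in each animal, with animal 1 low for cholesterol in both tissues, while animals 2 and 5 hold the highest mesothelial and stromal levels in LE.

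Of the receptors of ovarian hormones, Pgr differed between the tissues and Esr1 did not pass. Esr1, with a single working allele in these mice, had 116, 176 and 278 CPM in LE and 109.6, 161 and 251 CPM in U as lowest, median and highest level. The tissues overlapped, and the log2 fold change of 0.21 ± 0.12 missed the threshold (adjusted p = 0.188), so no difference was detectable. Pgr, the progesterone receptor, was lower in LE with 7.96, 10.6 and 26.9 CPM in LE and 24.1, 50.6 and 77.4 CPM in U (log2 fold change −1.81 ± 0.32, adjusted p = 0.00158, lower in 6 of 6 animals). Nr3c1, the glucocorticoid receptor, was also lower, with a log2 fold change of −0.63 ± 0.13. Gper1, a membrane oestrogen receptor (1.36), and the nuclear receptor coregulator Nrip1 (0.87) were higher. Of 11 tested members of this list 2 were higher and 4 lower, beside 24.2% higher and 26.7% lower over all genes. The median was −0.03. On TPM the list had 1 higher and 3 lower, and its median was 0.08 without animals 2 and 5.

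Hedgehog signalling in the uterus runs from an epithelial ligand to stromal receptors. The ligand Ihh, which is known from later, progesterone-led days, was too low for a test, with 0.143 ± 0.101 CPM in LE and 1.13 ± 1.87 CPM in U. Ptch1, the receptor, did not pass, with 49.6 ± 14.8 CPM in LE and 40.1 ± 13.8 CPM in U (log2 fold change 0.33 ± 0.24, adjusted p = 0.274). 7 of 8 tested genes were lower in LE and none higher. They were the effectors Gli1 (−2.85), Gli2 (−4.03) and Gli3 (−1.95), the low ligand Dhh (−2.34), the signal transducer Smo (−0.43, call lost in 3 of 6 leave-outs), and the stromal transcription factors Nr2f2 (−0.66) and Hand2 (−4.02). Hand2, which restrains FGF ligands in stroma, had 3.89 ± 3.43 CPM in LE and 47.9 ± 18.6 CPM in U (log2 fold change −4.02 ± 0.57, adjusted p = 5.12e-04, lower in 6 of 6 animals). With animals 2 and 5 left out, 5 genes were called lower.

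Wnt ligands differed in both directions. Wnt7a, whose promoter drives Cre in the knockout line, had 14.2, 47.6 and 98.1 CPM in LE and 6.12, 13.6 and 42.6 CPM in U as lowest, median and highest level (log2 fold change 1.61 ± 0.17, adjusted p = 1.13e-04, higher in 6 of 6 animals). The tissues overlapped in CPM, but LE was higher within every animal. Wnt7b (1.53), Wnt4 (1.14) and Wnt11 (1.57, call lost in 4 of 6 leave-outs) were also higher in LE. Wnt16 (−2.39), Wnt5b (−3.32) and Wnt6 (−4.87) were among the 5 of 11 tested ligands that were lower. Of 22 receptors and secreted regulators 6 were higher and 6 lower. Both shares are near those over all genes (24.2% and 26.7%), and on TPM the list had 3 higher and 7 lower. The higher ones were receptors: Fzd5 (0.53), Fzd6 (0.84), Fzd8 (0.73), Fzd10 (1.26), the coreceptor Lrp5 (0.81) and the R-spondin receptor Lgr4 (0.69). The lower ones included the R-spondin Rspo3, which amplifies Wnt signals, with 2.64 ± 1.36 CPM in LE and 88.7 ± 20.7 CPM in U (log2 fold change −5.13 ± 0.26, adjusted p = 6.63e-06, lower in 6 of 6 animals). The antagonist Sfrp4 had 0, 0.527 and 2.25 CPM in LE and 60.5, 252 and 349 CPM in U as lowest, median and highest level (log2 fold change −8.62 ± 0.48, adjusted p = 8.89e-06, lower in 6 of 6 animals), and Dkk2, another antagonist, had a log2 fold change of −4.75 ± 0.42.

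Of 10 tested FGF genes 4 were higher and 5 lower, beside 24.2% higher and 26.7% lower over all genes. On TPM the list had 3 higher and 4 lower. The ligands Fgf9 (1.44), Fgf18 (1.10) and Fgf1 (1.19) and the receptor Fgfr3 were higher in LE, while 5 of 10 were lower. Fgfr3 had 14.4 ± 4.82 CPM in LE and 5.93 ± 1.98 CPM in U (log2 fold change 1.29 ± 0.18, adjusted p = 4.96e-04, higher in 6 of 6 animals). Fgf10 and Fgf7, ligands of mesenchyme that act on epithelium, had 0.181 ± 0.143 CPM in LE and 6.31 ± 2.94 CPM in U and 0.265 ± 0.192 CPM in LE and 1.77 ± 0.476 CPM in U (log2 fold changes −5.12 and −2.82). The receptor Fgfr2 had 59.9 ± 60.7 CPM in LE and 76.7 ± 21.8 CPM in U (log2 fold change −0.80, adjusted p = 0.0688). In the 4 animals other than 2 and 5, 2 FGF genes were called higher and 5 lower.

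In the EGF family 5 of 8 tested genes were higher in LE. Tgfa, a ligand, had 36.8 ± 9.37 CPM in LE and 16.2 ± 4.68 CPM in U (log2 fold change 1.19 ± 0.15, adjusted p = 2.45e-04, higher in 6 of 6 animals), and the receptors Erbb3 and Erbb2 had log2 fold changes of 1.14 ± 0.11 and 1.16 ± 0.15. The lower gene was the neuregulin Nrg1, a ligand of Erbb3, with 0.699 ± 0.691 CPM in LE and 9.57 ± 3.13 CPM in U (log2 fold change −4.02 ± 0.47, adjusted p = 1.92e-04, lower in 6 of 6 animals). Areg was too low for a test, with 0.493 ± 0.517 CPM in LE and 0.246 ± 0.168 CPM in U. In the IGF axis 7 of 10 genes were lower in LE and none higher. Igf1, a growth factor of stroma, had 11.6 ± 6.74 CPM in LE and 46.2 ± 11.9 CPM in U (log2 fold change −2.20 ± 0.37, adjusted p = 0.00128, lower in 6 of 6 animals), whereas its receptor Igf1r had 177 ± 53.5 CPM in LE and 146 ± 38.7 CPM in U (log2 fold change 0.27, adjusted p = 0.168). The binding proteins Igfbp5 (−4.64), Igfbp3 (−3.44) and Igfbp7 (−3.08) were lower.

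The ligands Pdgfa and Vegfa were higher in LE and the receptors Pdgfra, Pdgfrb and Kdr lower, while the ligand Pdgfb was lower (−0.63, call lost in 4 of 6 leave-outs). Pdgfa had 58.6 ± 12.7 CPM in LE and 33.3 ± 7.16 CPM in U (log2 fold change 0.81 ± 0.11, adjusted p = 4.60e-04, higher in 6 of 6 animals), and Vegfa had 404 ± 131 CPM in LE and 181 ± 55.7 CPM in U (log2 fold change 1.16 ± 0.09, adjusted p = 3.97e-05, higher in 6 of 6 animals). The receptors Pdgfra, Pdgfrb and Kdr had log2 fold changes of −6.24 ± 0.49, −7.17 ± 0.36 and −3.39 ± 0.56, and the vessel ligand Angpt1 and its receptor Tek −3.24 ± 0.45 and −3.94 ± 0.64. With Flt1, 3 of 17 were higher and 11 lower. In the BMP, activin and TGF beta list 2 of 20 were higher, the receptor Acvr1 (0.74) and the activin subunit Inhbb (0.57, call lost in 2 of 6 leave-outs), and 10 were lower, with Bmp7 (−3.50), the activin subunit Inhba (−4.28) and the coreceptor Tgfbr3 (−2.46) leading (1 higher and 9 lower on TPM). Lif, a cytokine needed for implantation and known from glands, had 106, 367 and 567 CPM in LE and 32.0, 87.1 and 138 CPM in U as lowest, median and highest level (log2 fold change 1.94 ± 0.24, adjusted p = 2.87e-04, higher in 6 of 6 animals). Il6, of the same family, was high in LE of animal 1 alone, with 0.971, 1.60 and 50.5 CPM in LE and 0.297, 0.764 and 5.17 CPM in U as lowest, median and highest level (log2 fold change 1.86 ± 0.35, adjusted p = 0.00220, higher in 6 of 6 animals). Osmr, the oncostatin M receptor, was higher (0.82), and Il11ra1 (−2.01) and Il6ra (−0.94) were lower. This list had 5 of 11 higher and 2 lower, and its median changed sign with the scale, at 0.00 on counts and −0.10 on TPM, where 3 higher and 3 lower were called.

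**Figure D4:**
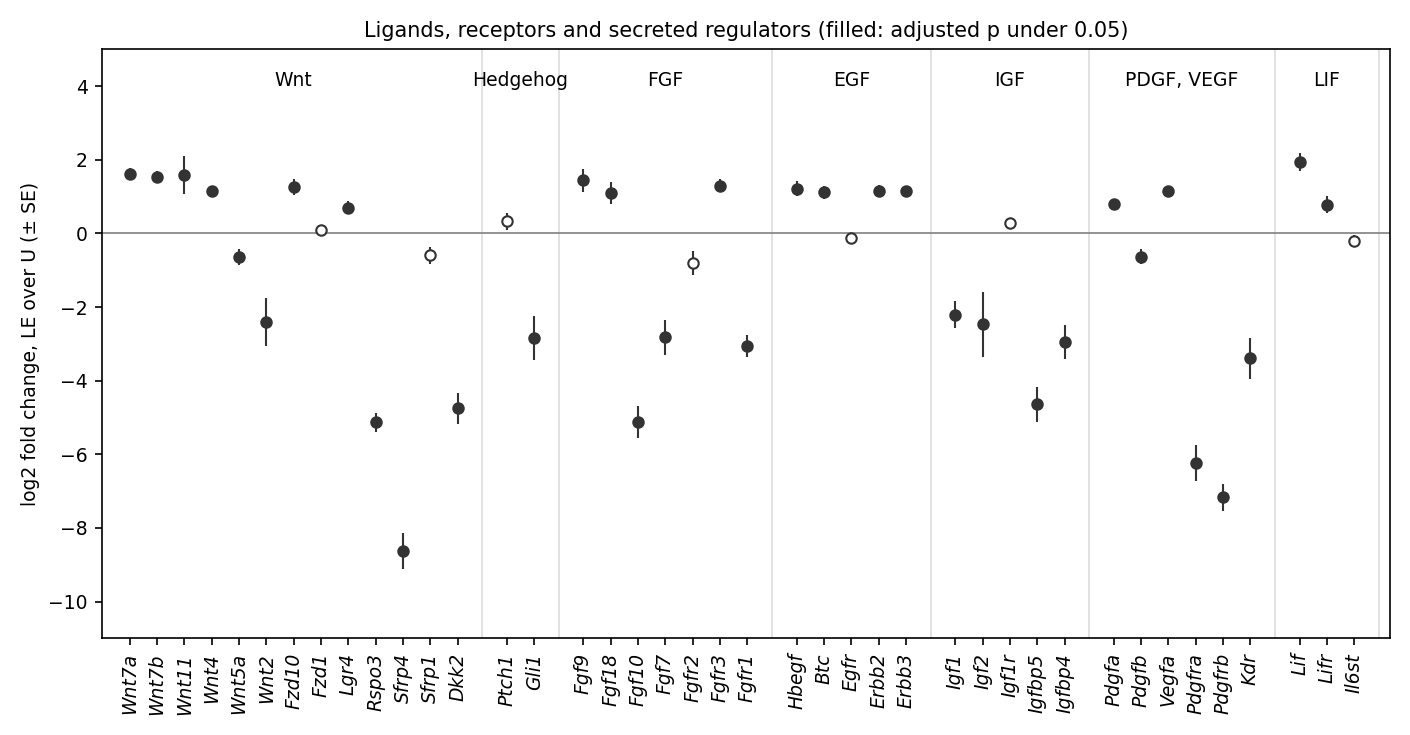
Log2 fold change of LE over U ± standard error for ligands, receptors and secreted regulators of 7 signalling systems. Filled points passed an adjusted p of 0.05. The Wnt ligand Wnt7a, the receptor Fgfr3 and the ligands Pdgfa, Vegfa and Lif lie above 0, the hedgehog receptor Ptch1 did not pass, and Gli1, Rspo3, Sfrp4, Fgf10, Igfbp5 and the PDGF receptors lie far below.

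At the basement membrane the laminins separated by chain. Lamb3 and Lama3, chains of epithelial laminin, had log2 fold changes of 1.61 ± 0.11 and 1.26 ± 0.13, and Lama5 1.31 ± 0.10. Lamb3 had 286 ± 91.0 CPM in LE and 98.0 ± 47.4 CPM in U (adjusted p = 1.86e-05, 6 of 6 animals). Of 24 genes of this list 4 were higher and 15 lower. Lama2, the laminin chain of muscle, had 0.206 ± 0.286 CPM in LE and 75.0 ± 43.4 CPM in U (log2 fold change −8.61 ± 0.49, adjusted p = 9.28e-06, lower in 6 of 6 animals), and Nid1 and Col15a1, linkers and collagens of vessel and muscle membranes, had log2 fold changes of −4.55 and −7.76. Integrins followed, with Itga2 (1.26), Itgav (1.22), Itgb6 (1.32), Itgb4 (0.98), Itga6 (1.35) and Itga3 (1.08) higher. Itga6 and Itgb4 together form the laminin receptor of hemidesmosomes. Itga1 (−4.52), Itga4 (−1.90) and Itga8 (−7.35) led the 8 of 16 that were lower.

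Proteases that remodel matrix were mostly lower in LE. In the list of metalloproteinases and their inhibitors 12 of 17 were lower and 3 higher. Mmp11, a stromelysin of stroma, had 2.66 ± 1.76 CPM in LE and 239 ± 109.6 CPM in U (log2 fold change −6.55 ± 0.22, adjusted p = 1.08e-06, lower in 6 of 6 animals), and Adamts5 and the gelatinase Mmp2 had log2 fold changes of −4.02 ± 0.29 and −3.44 ± 0.36. Mmp7 (matrilysin, of glandular and luminal epithelia) was the reverse, with 377 ± 171 CPM in LE and 117 ± 59.9 CPM in U (log2 fold change 1.74 ± 0.18, adjusted p = 1.19e-04, higher in 6 of 6 animals). Mmp23 (0.47) and Mmp15 (0.24) were higher as well, each with the call lost in 4 of 6 leave-outs, and Mmp15 turned to −0.015 on log2(TPM + 1). The list had 1 higher and 12 lower on TPM, and 1 higher and 11 lower without animals 2 and 5. Of 24 serine proteases and serpins 15 were higher and 4 lower (14 higher and 7 lower on TPM). Prss32 and Tmprss11d, proteases of epithelia, had log2 fold changes of 1.67 and 1.44 and the serpin Serpina1e 1.68. Serpina3n (−4.81), Serpine2 (−3.90), Serpinb6b (−1.12, call lost in 5 of 6 leave-outs) and the collagen chaperone Serpinh1 (−1.92) were lower.

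Transcription factors separated by the identity they are known to hold. Of 18 factors 9 were higher and 7 lower. Beside Elf3, Ovol1 (1.37) and Klf5 (1.46), which keep epithelial fate, led the higher ones. The 7 lower ones were Zeb1 (−3.56), Zeb2 (−5.12), Snai1 (−4.11), Snai2 (−3.60), Twist1 (−1.74, call lost in 4 of 6 leave-outs), Twist2 (−5.94) and Prrx1 (−4.94), all factors of mesenchyme. Zeb1, a repressor of E-cadherin, had 4.27 ± 2.75 CPM in LE and 44.7 ± 10.6 CPM in U (log2 fold change −3.56 ± 0.29, adjusted p = 4.15e-05, lower in 6 of 6 animals). Of 23 Mullerian and homeobox factors 8 were higher and 12 lower. Pax8, a factor of Mullerian duct epithelium, had 213 ± 66.7 CPM in LE and 83.3 ± 20.9 CPM in U (log2 fold change 1.33 ± 0.11, adjusted p = 4.79e-05, higher in 6 of 6 animals). With it stood Pax2 (1.28), Dlx5 (1.27), Dlx6 (1.21), Sox17 (0.77), Msx1 (0.77) and Msx2 (1.10). Hoxa10, which patterns the uterus and is needed in stroma for implantation, had 0.166, 2.31 and 10.6 CPM in LE and 34.2, 85.6 and 127 CPM in U as lowest, median and highest level, with its highest LE value in animal 2 (log2 fold change −5.28 ± 0.51, adjusted p = 8.23e-05, lower in 6 of 6 animals). Hoxd9 and Hoxd10 had log2 fold changes of −4.07 ± 0.38 and −4.70 ± 0.44. Leaving out animals 2 and 5, 8 were higher and 8 lower.

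Chemokine and cytokine genes differed in both directions. Of 27 chemokines and cytokines 13 were higher and 7 lower in LE, beside 24.2% higher and 26.7% lower over all genes. Cx3cl1, a membrane-bound chemokine, had 281 ± 84.5 CPM in LE and 103 ± 36.9 CPM in U (log2 fold change 1.46 ± 0.11, adjusted p = 2.76e-05, higher in 6 of 6 animals), and Cxcl16 had a log2 fold change of 0.89 ± 0.10. Cxcl12, a chemokine of stroma, had 0.926 ± 0.597 CPM in LE and 129 ± 36.9 CPM in U (log2 fold change −7.17 ± 0.39, adjusted p = 7.78e-06, lower in 6 of 6 animals). Ccl8 (−8.21) and the eotaxin Ccl11 (−7.23) were lower, as were Cxcl14 (−4.30), Ccl7 (−4.13), Cxcl10 (−1.95) and Ccl2 (−2.84, call lost in 1 of 6 leave-outs). In the complement list 6 of 17 were higher and 9 lower, beside the same shares over all genes. The higher ones included the cascade components C3 (1.41), C2 (1.26) and Cfb (1.76), the regulator Cfi (1.14), and Cd55 (1.18), which protects the cell's own surface. Cfb had 8921 ± 2374 CPM in LE and 2843 ± 1302 CPM in U (log2 fold change 1.76 ± 0.18, adjusted p = 1.06e-04, higher in 6 of 6 animals). The lower ones were led by C1qa, the receptor C3ar1 (−5.16) and Cfp (−1.58).

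Of 13 MHC and antigen presentation genes 3 were higher in LE, 4 were lower and 6 were not called. Over all genes 24.2% were higher and 26.7% lower. The class I genes H2-K1 (0.51) and H2-D1 (0.54, call lost in 2 of 6 leave-outs) and the peptide loader Tapbp (0.65) were higher in LE by small amounts. The class II genes H2-Eb1 (−4.02), H2-Aa (−4.58) and H2-Ab1 (−3.34) were lower, with Cd74, the invariant chain (named after its values were seen), at 20.8, 68.6 and 256 CPM in LE and 310.0, 502 and 702 CPM in U as lowest, median and highest level (log2 fold change −2.80 ± 0.44, adjusted p = 8.47e-04, lower in 6 of 6 animals). The class I calls were lost without animals 2 and 5, where 0 genes of the list were higher, and the median of the list was 0.12 on counts and −0.17 on TPM. Of 17 interferon-stimulated genes 4 were higher, led by Oas2 (0.68), Oasl1 (0.45) and Ifi44 (0.45), and Ifit2 (−2.27) and Ifit3 (−1.17) were lower. LE of animal 1 had the lowest mean log2 level of this list, 6.40, below the other 5 LE libraries. The 24.2% of all genes that were higher stand beside the 4 of 17. On TPM 1 higher and 7 lower were called, and after animals 2 and 5 were left out 2 higher and 2 lower.

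Mitosis genes were mostly lower in LE. Of 17 mitosis genes 11 were lower in LE and none higher, with a median of −1.37. The mean log2 level of the list was lower in LE than in U in 5 animals. In animal 3 it was higher, with 3.71 in LE and 3.55 in U. Mki67, a marker of cycling cells, had 1.82, 5.00 and 32.9 CPM in LE and 13.3, 29.8 and 47.4 CPM in U as lowest, median and highest level (log2 fold change −2.09 ± 0.46, adjusted p = 0.00497, lower in 6 of 6 animals). Bub1b (a checkpoint kinase) and the spindle motor Kif11 had log2 fold changes of −2.64 ± 0.50 and −1.42 ± 0.42, with the call lost in 4 of 6 leave-outs for Kif11. The LE libraries differed widely, since the list summed to 244 CPM in animal 3, 115 CPM in animal 2 and 23.5 to 52.4 CPM in the others. After animals 2 and 5 were left out, 7 were called lower. S phase genes were mostly not called: 2 of 19 were higher and 1 lower, with E2f1 (−1.21, call lost in 5 of 6 leave-outs) as the lower one, and Ung (0.73) and Mcm2 (0.41, call lost in 4 of 6 leave-outs) as the higher. The list had 0 higher and 5 lower on TPM, and 0 higher and 2 lower without animals 2 and 5, with a median of −0.56 against −0.14 in all 6 animals.

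The prostaglandin synthesis genes Ptgs2 and Pla2g4a were higher in LE, and several receptor genes were lower. Ptgs2, the inducible cyclooxygenase, had 1007 ± 559 CPM in LE and 379.7 ± 281 CPM in U (log2 fold change 1.55 ± 0.15, adjusted p = 8.03e-05, higher in 6 of 6 animals), and Pla2g4a, which frees its substrate, had 143 ± 32.3 CPM in LE and 73.5 ± 13.7 CPM in U (log2 fold change 0.95 ± 0.12, adjusted p = 3.51e-04, higher in 6 of 6 animals). The receptors Ptgfr and Ptgir, of muscle and vessels, had 0.0800 ± 0.0698 CPM in LE and 8.82 ± 1.30 CPM in U and 0.368 ± 0.604 CPM in LE and 13.1 ± 5.42 CPM in U (log2 fold changes −6.73 and −5.76), and Ptger1 (3.75 ± 0.442 CPM in LE and 7.73 ± 2.38 CPM in U) and Ptger3 (−1.52, call lost in 5 of 6 leave-outs) were lower as well. Ptger2 was a receptor on the other side, with 11.9 ± 2.44 CPM in LE and 5.07 ± 1.26 CPM in U (log2 fold change 1.24 ± 0.20, adjusted p = 0.00105, higher in 6 of 6 animals). Of 17 genes 6 were higher and 5 lower, beside 24.2% higher and 26.7% lower over all genes. The median was 0.17 on counts and −0.09 on TPM. In the 4 other animals, without 2 and 5, 5 higher and 6 lower were called and the median was −0.24. Of 17 genes of retinoid and steroid metabolism 5 were higher and 8 lower. Hsd17b2, which inactivates oestradiol, had 71.2 ± 11.5 CPM in LE and 29.7 ± 9.01 CPM in U (log2 fold change 1.30 ± 0.14, adjusted p = 1.17e-04, higher in 6 of 6 animals). Crabp2, a retinoic acid carrier (1.70), and Srd5a1, a steroid reductase (0.91), were also higher. The glucocorticoid-inactivating enzyme Hsd11b2 had 0.647 ± 0.398 CPM in LE and 30.3 ± 26.6 CPM in U (log2 fold change −5.28 ± 0.51, adjusted p = 8.62e-05, lower in 6 of 6 animals), and Cyp26b1, which breaks down retinoic acid, had a log2 fold change of −3.27 ± 0.48.

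LE had been digested and U had not, and the immediate early genes, which respond within minutes to handling of tissue, are set apart for that reason. Of 25 genes 14 were higher and 2 lower in LE. Fosb had 19.0, 54.7 and 99.3 CPM in LE and 2.55, 3.30 and 9.02 CPM in U as lowest, median and highest level (log2 fold change 3.56 ± 0.29, adjusted p = 4.36e-05, higher in 6 of 6 animals). Fos had 321, 467 and 806 CPM in LE and 61.4, 93.0 and 108 CPM in U (log2 fold change 2.48 ± 0.14, adjusted p = 9.03e-06, higher in 6 of 6 animals). Neither overlapped between the tissues, which was required of the genes with the highest folds. Egr1, a zinc finger factor of the same response, had 178 ± 49.7 CPM in LE and 44.5 ± 16.6 CPM in U (log2 fold change 2.03 ± 0.24, adjusted p = 2.03e-04, higher in 6 of 6 animals), Zfp36, which destabilises cytokine transcripts, 328 ± 107 CPM in LE and 89.3 ± 22.0 CPM in U (log2 fold change 1.84 ± 0.21, adjusted p = 1.70e-04, higher in 6 of 6 animals), and Ier3 a log2 fold change of 1.63 ± 0.12. Atf3, a stress-induced factor, went the other way with 12.7 ± 7.60 CPM in LE and 24.9 ± 8.18 CPM in U (log2 fold change −1.16 ± 0.23, adjusted p = 0.00325, lower in 6 of 6 animals), and so did Ccn2, a matrix protein of fibroblasts (−2.39).

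DU, a digested piece of the same uterus, was available for animals 1, 5, 8 and 9. DU against U gave no called gene among 15440 (0%), with a smallest adjusted p of 0.130 in the paired quasi-likelihood test. An unadjusted p under 0.05 was reached by 3362 genes (21.8%), where a share of 0.05 is due if no gene differs. Of these, 1651 were higher and 1711 lower in DU. The absence of calls in 4 animals thus does not show that DU and U are alike. No other tool was run on DU against U. LE against DU gave 3911 genes higher (25.3%) and 4703 lower (30.5%). These comparisons share libraries with each other and with LE over U, so their values are set side by side and not correlated. In these 4 animals the log2 fold changes of Fosb were 3.53 for LE over U, 2.58 for LE over DU and 0.95 for DU over U. For Fos they were 2.49 for LE over U, 2.05 for LE over DU and 0.44 for DU over U. For Egr1 they were 2.05 for LE over U, 0.86 for LE over DU and 1.19 for DU over U. For Atf3 they were −1.30 for LE over U, −0.88 for LE over DU and −0.42 for DU over U. For Myh11 they were −10.13 for LE over U, −10.54 for LE over DU and 0.41 for DU over U, and for Cdh1 1.52 for LE over U, 1.39 for LE over DU and 0.13 for DU over U. In the immediate early list the median was 0.85 for LE over DU, with 12 genes higher and 3 lower, and −0.00 for DU over U. In the general epithelial list the medians were 1.70 for LE over DU and −0.34 for DU over U.

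**Figure D5:**
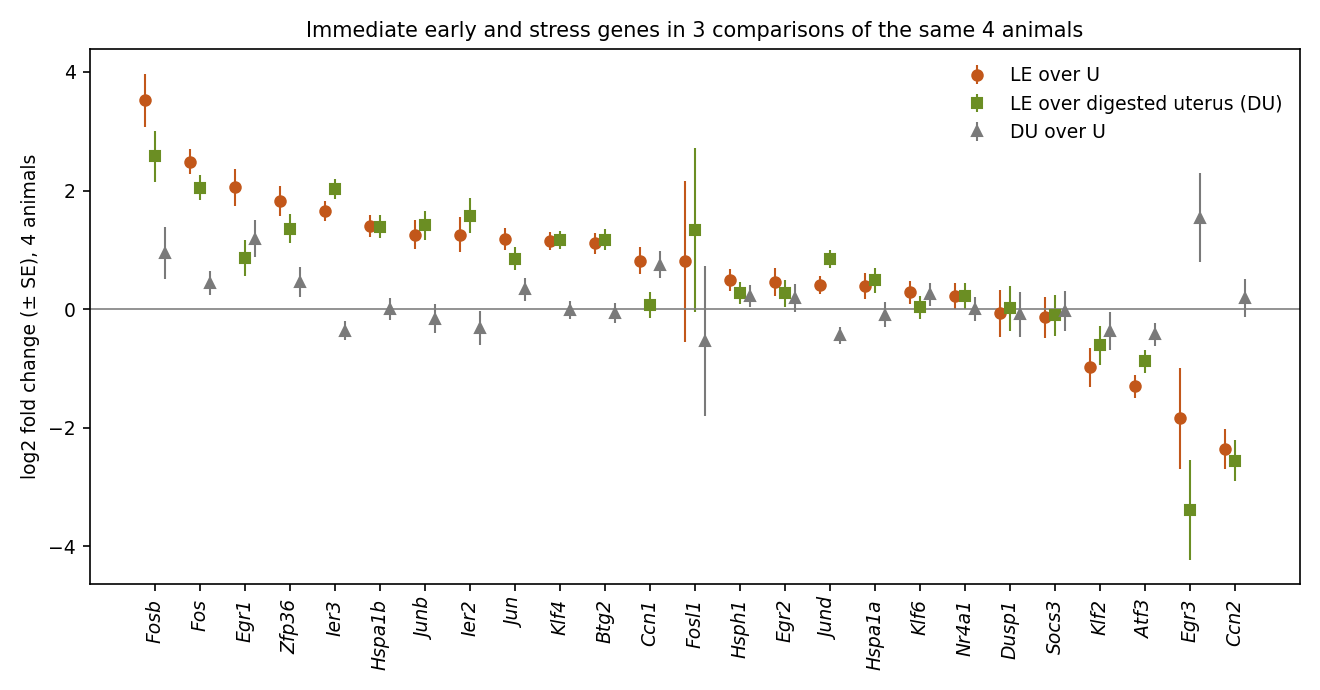
Log2 fold change ± standard error of immediate early and stress genes in 3 comparisons of the same 4 animals: LE over U, LE over digested uterus (DU) and DU over U, ordered by the first. Fosb and Fos are highest in LE over U, Egr1 has a positive value also in DU over U, and none of the DU over U values passed the threshold.

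Since muscle genes moved as a block and immediate early genes share a known regulator, promoters were searched on both strands from 250 bases before to 50 after the start (RefSeq, GRCm38.p6). The CArG box, to which serum response factor binds, was present in 1.81% of 27025 promoters. It was found in 2 of 16 smooth muscle genes with a window (Myl9, and Actc1, which was too low for a test) and in 2 of 20 immediate early genes (Egr2 and Zfp36, a list looked at after its values were seen). None of 15 epithelial promoters held it. The grainyhead motif AACCGGTT, bound by epithelial Grhl factors, was in 0.174% of all promoters and in none of the 15 epithelial ones, and the looser AACNNGTT, of which it is a case, in 4.77% and in 1, that of Rab25, a vesicle GTPase of epithelia. Stretches of 3 genes are shown, picked for holding a match, 5′ to 3′ on the strand of the gene, with the motif in capitals. Myl9 lies on the plus strand at chr2:156775263-156775352, Zfp36 on the minus strand at chr7:28379237-28379326 and Rab25 on the minus strand at chr3:88548334-88548421.
Myl9: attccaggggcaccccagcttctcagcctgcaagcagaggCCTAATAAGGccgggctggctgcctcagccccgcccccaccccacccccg
Zfp36: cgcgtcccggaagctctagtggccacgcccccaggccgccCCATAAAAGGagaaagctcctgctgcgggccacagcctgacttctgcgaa
Rab25: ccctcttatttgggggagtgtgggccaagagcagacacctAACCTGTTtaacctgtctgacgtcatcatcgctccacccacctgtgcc
Myl9, a light chain of smooth muscle myosin, had 4.74 ± 2.66 CPM in LE and 714 ± 211 CPM in U (log2 fold change −7.34 ± 0.56, adjusted p = 3.18e-05, lower in 6 of 6 animals). Rab25 had 108 ± 29.7 CPM in LE and 51.8 ± 13.5 CPM in U (log2 fold change 1.05 ± 0.11, adjusted p = 1.01e-04, higher in 6 of 6 animals), and Zfp36 is given above. A match is a description of the letters and not evidence of a bound site.

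The LE to U difference of D0.5 was set against that of control animals at D3.5, when progesterone acts and the lining nears receptivity. The fit held 17 animals with both tissues. Among them, 4 epiERa-/- animals of D3.5 entered through the filter, the scaling and the shared spread only. The log2 fold change of LE over U was higher at D0.5 than at D3.5 for 1290 of 16631 genes (7.76%) and lower for 2103 (12.6%). Of the general epithelial markers, 21 of 24 were lower and none higher in this difference, with medians of 1.35 at D0.5 and 2.88 at D3.5. Junction genes were lower in 15 of 23 cases. The secretory pathway went the other way, with 13 of 24 higher and medians of 0.67 at D0.5 and −0.00 at D3.5. Muscle genes differed in 1 of 19 cases. Macrophage genes were lower in 7 of 10 cases and higher in 1, with medians of −5.45 at D0.5 and −1.97 at D3.5. The cell make-up of LE and U on each day, such as the share of epithelium in U, enters this difference. Its part was not tested.

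Mme (the membrane peptidase neprilysin) had the lowest value of the difference. It had 1.75 ± 1.68 CPM in LE and 84.5 ± 50.4 CPM in U at D0.5, and 3148 ± 1909.8 CPM in LE and 433 ± 106 CPM in U at D3.5 (SD, n = 6 and 3), a difference of −8.52 ± 0.43 (adjusted p = 4.57e-09). It was thus lower in LE at D0.5 and higher in LE at D3.5. Cyp26a1, which degrades retinoic acid, had 0.346 ± 0.335 CPM in LE and 2.68 ± 1.60 CPM in U at D0.5, and 115 ± 60.0 CPM in LE and 4.30 ± 4.67 CPM in U at D3.5, a difference of −8.05 ± 0.90 (adjusted p = 1.16e-05). Tm4sf4 (−8.24), the ciliary dynein Dnah5 (−7.84) and the collagen Col28a1 (−7.43) turned in the same way. In LE at D0.5, Tm4sf4 and Col28a1 were at 0 except in animal 1 (0.211 and 0.264 CPM), so the size of their values is uncertain. At the other end were Glrb, Slc26a4, Tnip3, Cited1 and Spock1, each without a count in LE at D3.5, so that no fold is given there. Slc26a4 (pendrin, an anion exchanger) had 405 ± 169 CPM in LE and 135 ± 77.2 CPM in U at D0.5, and 0 ± 0 CPM in LE and 0.585 ± 0.151 CPM in U at D3.5. Cited1, a transcriptional coregulator, had 35.2 ± 19.0 CPM in LE and 16.1 ± 12.8 CPM in U at D0.5, and 0 ± 0 CPM in LE and 0.472 ± 0.345 CPM in U at D3.5.

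Against the knockout of epithelial Esr1 on the same day, the LE to U difference was tested in the same fit. It was higher in the control for 91 genes (0.547%) and lower for 171 (1.03%). The total of 262 was 152 without animal 27, 167 without animal 26, 174 without animal 5 and 134 without the replicate block. Esr1 itself had 203 ± 70.3 CPM in LE and 174 ± 54.3 CPM in U in the control, and 45.4 ± 12.5 CPM in LE and 109 ± 6.62 CPM in U in the knockout (SD, n = 6 and 4), a difference of 1.50 ± 0.18 (adjusted p = 3.28e-04). Pgr had a difference of 0.10 ± 0.45 (adjusted p = 0.985) and Wnt7a a difference of 0.65 ± 0.37 (adjusted p = 0.550), neither of which passed. Add2 (beta adducin, of the membrane skeleton) had 74.4 ± 71.7 CPM in LE and 27.8 ± 18.1 CPM in U in the control, and 0.248 ± 0.183 CPM in LE and 5.93 ± 0.855 CPM in U in the knockout, a difference of 5.74 ± 0.56 (adjusted p = 3.81e-05). Nav3 and Pcdh17 lay higher in control LE than in U, and Coch and Lpar1 did not differ detectably between the control tissues, with differences of 4.69, 4.62, 5.17 and 4.51. On the lower side Muc5b, a gel-forming mucin, had 0.276 ± 0.193 CPM in LE and 2.88 ± 2.22 CPM in U in the control, and 12.9 ± 11.5 CPM in LE and 0.375 ± 0.254 CPM in U in the knockout, a difference of −8.08 ± 1.13 (adjusted p = 0.00135). Postn (periostin, a matrix protein of stroma) had 1.98 ± 2.32 CPM in LE and 651 ± 142 CPM in U in the control, and 268 ± 139.9 CPM in LE and 797 ± 286 CPM in U in the knockout, a difference of −7.14 ± 0.96 (adjusted p = 8.01e-04). The acetylcholine receptor Chrm3, the lectin Reg3g and Retnlg followed, with −5.86, −5.82 and −5.27. Postn and Retnlg mark stroma and neutrophils and stood higher in knockout LE than in control LE. The 18 stromal fibroblast markers as a list did not move with Postn. Their median LE over U was −3.13 in the control and −3.69 in the knockout, with 1 higher and 0 lower in the difference. The 8 tested neutrophil genes had medians of −2.01 and −0.13, with 0 higher and 2 lower. The part of such cells in these values was not tested.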

How the data were processed

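RNA was sequenced from uterine tissue (NEBNext Ultra kit, from 1 µg RNA per the labels' protocols; strand is not marked). The authors deposited estimated counts per gene, made with kallisto 0.46.1 on GRCm39 per the submitters' processing notes, and TPM values of the same libraries. The sources used here do not give how transcripts were summed to genes. After rounding to integers and filterByExpr (a minimum count of 10 and a total of 15), the 12 libraries were fitted in edgeR 4.0.16 (R 4.3.3) with TMM factors and animal and tissue as terms. Tissue was tested by quasi-likelihood, with Benjamini-Hochberg adjustment across every gene tested and a threshold of 0.05. The standard error is the absolute log2 fold change over the root of F. CPM uses the TMM library sizes of the fit it stands beside, so values in the fit of 17 animals differ slightly. TPM values were tested with limma 3.58.1 on log2(TPM + 1) for genes with a mean of at least 1 TPM; limma voom and DESeq2 1.42.0 were alternatives, as were other scalings, leave-outs and a fit without the block. The fit was tested on simulated data. The comparison without animals 2 and 5 was added after seeing the data.

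Per the labels' protocol LE, DU and U were taken from each uterus, and libraries of an animal share its number; this is where the pairing comes from. Deviations of LE and U libraries of an animal correlated at 0.210 to 0.424 (median 0.353), and each of the 6 animals matched its own number best. No 2 libraries of a tissue agreed within sampling noise, since chi-square over its degrees of freedom was at least 40.2 in 30 pairs.

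The comparison, its 52 gene lists and the rule for named genes were chosen with earlier results of these data known. The rule names Esr1, Pgr and Wnt7a; the 10 highest and 10 lowest called genes with at least 10 CPM, 1 sign in all 6 pairs, no overlap and no predicted name; the 10 genes highest in TPM per tissue; per list and direction, at most 3 called members with the lowest adjusted p (the most abundant where none was called) and any called against its list; 5 and 5 genes per difference; and ligand and receptor genes. Some of them, mostly ligands and receptors, are given by counts only, and genes named otherwise are said to be so. A few genes that the rule names are not reported here.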

Additional observations from a re-analysis of the deposited data

Results flagged for a closer look

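The sets of 6 libraries examined (each named gene and each list, in LE and in U) numbered 702. Of these, 54 held 1 library whose gap to the nearest other exceeded 0.625 of the whole range. Chance gives about 1 in 20 for normally spread values, a rate that does not hold for levels near 0. The values of Hmcn2, Nmur2 and Npas4 in LE rest on 1 count each. These are values of CPM unless said otherwise. Animal 1 stood apart in LE for Atp6v0d2 (15.4), Col28a1 (0.264), Cxcl14 (14.1), Foxa2 (24.3), Glrb (0.791), Hmcn2 (0.0528), Ifit3 (37.9), Il6 (50.5), Jchain (2.22), Msx2 (8.18), Oasl1 (49.6), Tm4sf4 (0.211) and Ung (5.54). In mean log2(CPM + 0.5) of a list it stood apart for sperm and seminal fluid (−0.65) and interferon-stimulated (6.40). Animal 2 stood apart in LE for Aqp9 (3.95), B3gnt5 (0.729), Cfi (274), Nmur2 (0.0607), Ptgir (1.58), Retnlg (1.88) and Wnt6 (0.789). In mean log2(CPM + 0.5) of a list it stood apart for T and NK cell (1.07). Animal 3 stood apart in LE for Actc1 (31.9), Itga8 (0.712), Npas4 (0.0647) and Rgs5 (2.91). Animal 5 stood apart in LE for Cyp26b1 (2.89). Animal 8 stood apart in LE for Wnt11 (0.497). Animal 9 stood apart in LE for Prg2 (0.481). In mean log2(CPM + 0.5) of a list it stood apart for stratified epithelium (3.86). Animal 1 stood apart in U for Atp6v0d2 (7.98), Ccl7 (3.64), Fgfr3 (2.49), Ihh (4.94), Inhbb (124), Serpina3n (30.7) and Vegfa (80.1). In mean log2(CPM + 0.5) of a list it stood apart for sperm and seminal fluid (−0.58). Animal 2 stood apart in U for Bmp7 (14.9) and Ngfr (5.58). Animal 3 stood apart in U for A2m (339) and Serpinh1 (1056). Animal 5 stood apart in U for Pecam1 (87.0). Animal 8 stood apart in U for Fgf9 (14.9), Nr2f2 (57.3), Prrx1 (28.0), Wnt7b (96.5) and Zeb1 (24.6). In mean log2(CPM + 0.5) of a list it stood apart for general epithelium (7.31). Animal 9 stood apart in U for Cdh1 (202) and Pla2g4a (48.7). In mean log2(CPM + 0.5) of a list it stood apart for apical polarity and microvillus (3.49) and water and ion transport (4.11).

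The log2 fold change of LE over U differed between control animals of D0.5 and D3.5 for 3393 genes, and between control and epiERa-/- animals of D0.5 for 262, by the test of the difference in the fit of 17 animals. The total of 262 was 152 without animal 27, 167 without animal 26, 174 without animal 5 and 134 without the replicate block. Against D3.5 the lowest values of the difference (D0.5 minus D3.5) were those of Mme (−8.52), Tm4sf4 (−8.24), Cyp26a1 (−8.05), Dnah5 (−7.84) and Col28a1 (−7.43), and the highest those of Glrb (10.22), Slc26a4 (8.57), Tnip3 (8.06), Cited1 (8.02) and Spock1 (7.74). These higher genes have no count in LE at D3.5, so their size depends on the prior count of the fit and is no bound. On the lower side Tm4sf4 and Col28a1 were at 0 in LE at D0.5 except in animal 1 (0.211 and 0.264 CPM). Their sizes therefore rest on levels near 0 as well. Against the knockout (control minus knockout) the lowest were Muc5b (−8.08), Postn (−7.14), Chrm3 (−5.86), Reg3g (−5.82) and Retnlg (−5.27) and the highest Add2 (5.74), Coch (5.17), Nav3 (4.69), Pcdh17 (4.62) and Lpar1 (4.51).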

How the results depend on the processing

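The counts of genes higher and lower in LE stayed within 1.5 times under median-of-ratios size factors (3759 and 3843), no filter on low counts (3661 and 4039) and DESeq2 (3990 and 4128). They also did with limma voom (3778 and 3985) and all 9 LE libraries (3180 and 3811). In the 4 animals with DU, LE against DU gave 4090 and 4167 in a fit of these 2 tissues alone. LE against U in the same 4 animals gave 2521 and 3427, and both pairs of counts stayed within 1.5 times as well. Without the replicate block, which ignores the pairing of tissues by animal, 2459 genes were higher and 3370 lower. Leaving out 1 animal gave 2929 to 3319 higher and 3387 to 3855 lower. The count of higher genes moved to 1691 on log2(TPM + 1), 1664 on log2(TPM + 0.1), 1605 on log2(TPM + 1) with no filter and 1020 at 2-fold. The difference from D3.5 had 3393 genes, 2346 without the replicate block and 2513 to 3443 over the leave-outs. The difference from the knockout had 262 genes, 134 without the replicate block, and 152 to 354 over the leave-outs, the lowest being 152 without animal 27, 167 without 26 and 174 without 5. The larger share of the 50 most abundant genes in LE (8.21 points) ranged from 7.02 to 8.91 points over the leave-outs, where 5 pairs are too few to pass, and was 8.31 for 10 genes and 5.64 for 200. Of 292 named genes with a test, 38 lost their call without the replicate block, 22 without animals 2 and 5, 16 on log2(TPM + 1), 15 against DU, 6 with limma voom, 4 with no filter, 1 with median-of-ratios factors and 0 with DESeq2. Leaving out an animal ended the call of 22 of them and reversed none. Without animal 1 the calls of E2f1, Kif11, Mmp23, Pdgfb, Ptger3, Serpinb6b and Twist1 were lost. Without animal 2 the calls of Atp6v0d2, Mcm2, Mmp15, Mmp23, Spock1, Tmsb4x and Wnt11 were lost. Without animal 3 the calls of Alas2, Atp6v0d2, E2f1, Flt4, H2-D1, Inhbb, Mcm2, Mmp15, Mmp23, Pdgfb, Ptger3, Serpinb6b, Smo, Tmsb4x, Twist1 and Wnt11 were lost. Without animal 5 the calls of Alas2, Atp6v0d2, Ddit3, E2f1, Flt4, H2-D1, Inhbb, Kif11, Mcm2, Mmp15, Mmp23, Pdgfb, Ptger3, Serpinb6b, Tmsb4x and Wnt11 were lost. Without animal 8 the calls of Alas2, Atp6v0d2, Ddit3, E2f1, Kif11, Mmp15, Ptger3, Serpinb6b, Smo, Spock1, Tmsb4x and Twist1 were lost. Without animal 9 the calls of Alas2, Atp6v0d2, Ccdc39, Ccl2, Ddit3, E2f1, Eef1a1, Flt4, Kif11, Mcm2, Pdgfb, Ptger3, Serpinb6b, Smo, Tmsb4x, Twist1 and Wnt11 were lost. Their log2 fold changes over the leave-outs were −1.68 to −1.05 for Alas2, −2.62 to −1.51 for Atp6v0d2, −0.90 to −0.63 for Ccdc39, −3.43 to −2.18 for Ccl2, −0.72 to −0.44 for Ddit3, −1.56 to −0.86 for E2f1, −0.59 to −0.45 for Eef1a1, −2.13 to −1.28 for Flt4, 0.47 to 0.66 for H2-D1, 0.43 to 0.69 for Inhbb, −1.76 to −1.15 for Kif11, 0.28 to 0.46 for Mcm2, 0.21 to 0.30 for Mmp15, 0.37 to 0.59 for Mmp23, −0.80 to −0.52 for Pdgfb, −1.98 to −1.33 for Ptger3, −1.48 to −0.77 for Serpinb6b, −0.53 to −0.33 for Smo, 0.72 to 1.09 for Spock1, −0.55 to −0.34 for Tmsb4x, −2.19 to −1.32 for Twist1 and 1.24 to 1.90 for Wnt11. A few named genes reversed: Atp6v0d2 without the replicate block (0.12), Mmp15 on log2(TPM + 1) (−0.015), and Rps27 (0.48) and Tmsb4x (0.30) in LE against DU. For these the cause was not tested. Genes under the count filter were not tested, so depth limits what is said of genes near 0 in LE.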
